A study of Mus musculus with 16 samples.

Results

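The replication-dependent core histone genes are the subject here, described in T-cell acute lymphoblastic leukaemia (T-ALL) cells grown in mice fed 4 amounts of valine. Members were all genes whose symbol begins with Hist1, Hist2, Hist3 or Hist4 followed by the letters of H2A, H2B, H3 or H4. This rule took 56 of the 12012 genes in the deposited table: 16 H2A, 17 H2B, 11 H3 and 12 H4 genes. Linker histone genes were left out by the rule. The rule itself uses gene names alone.

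Leukaemic cells came from C57BL/6 mice carrying secondary transplants of NOTCH-delta E tumours, which all diet groups shared. The groups were fed valine at 0, 0.4, 0.8 or 8 g/kg, the last being the control diet, for 3 weeks, and leukaemic cells were then sorted from spleen by their GFP. The labels give the middle doses per kilogram of diet in one field and as a supplement to drinking water in another. Each diet gave a total RNA library and a library of ribosome-protected fragments (RPF, the mRNA pieces covered by ribosomes) for each of the numbers T-ALL 2 and T-ALL 3, hence 16 libraries with 2 per diet and fraction. The labels do not say whether those numbers are separate tumours, separate mice or pools, nor whether the RPF and total RNA libraries of one number and diet came from the same cells, so a p-value here reflects the spread among these libraries and nothing beyond it.

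Core histones form the protein octamer around which DNA is wrapped, and cells need a large supply of them while DNA is copied. Their genes lie in clusters of many near-identical, intronless copies. Most of their mRNAs end in a stem-loop bound by the stem-loop binding protein instead of a poly(A) tail, and these mRNAs accumulate in S phase and are broken down when DNA synthesis stops. H2A and H2B pair with each other in the octamer, as do H3 and H4.

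Values in the table are FPKM, fragments scaled to gene length and library size. Steps in the low values gave back whole reads, and their totals ran from 41848 to 205545 in RPF and from 364685 to 1269364 in total RNA. Core histones held 326.5 to 643.4 of every 10000 reads in RPF and 208.1 to 339.0 in total RNA. T-cell genes were present throughout, Lck (a T-cell kinase) at 396 and 421 FPKM in 0 g/kg total RNA and 432 and 497 FPKM in 8 g/kg total RNA. Near-identical histone copies can share reads, and how reads with several matches were assigned is not given in the sources used here, so family sums are firmer than single genes.

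All 56 members were found in the RefSeq annotation of mouse build GRCm38.p6: 45 in the Hist1 cluster on chromosome 13, 8 in Hist2 on chromosome 3, 2 in Hist3 on chromosome 11 and 1, Hist4h4, on chromosome 6. Of these, 50 spanned at most 1000 bases, with a median span of 488 bases. Hist1h2al is listed there as a transcribed pseudogene. In 8 places an H2A and an H2B gene pointed away from each other from start sites 164 to 281 bases apart, which placed 16 members in head-to-head pairs.

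Promoter sequences were in the RefSeq table for 50 members. Upstream stretches of 5 members are shown because they belong to genes named in the diet comparisons below and carry, between them, each of the motifs counted. Each is the 150 bases before the annotated start, 5′ to 3′ on the gene's strand, and capitals mark the motifs spelled out after the sequences, on either strand. They lie at chr3:96245347-96245496 (Hist2h2aa1), chr13:23571250-23571399 (Hist1h2bg, between it and Hist1h2ae), chr13:21721894-21722043 (Hist1h2bm), chr13:23535268-23535417 (Hist1h3g) and chr13:23581418-23581567 (Hist1h4d), all on the plus strand.
Hist2h2aa1: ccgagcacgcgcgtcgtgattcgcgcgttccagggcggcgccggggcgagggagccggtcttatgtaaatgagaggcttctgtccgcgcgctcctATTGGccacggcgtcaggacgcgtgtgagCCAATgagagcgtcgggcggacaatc
Hist1h2bg: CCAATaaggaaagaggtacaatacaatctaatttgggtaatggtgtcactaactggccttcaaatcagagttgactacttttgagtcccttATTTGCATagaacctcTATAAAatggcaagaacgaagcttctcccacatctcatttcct
Hist1h2bm: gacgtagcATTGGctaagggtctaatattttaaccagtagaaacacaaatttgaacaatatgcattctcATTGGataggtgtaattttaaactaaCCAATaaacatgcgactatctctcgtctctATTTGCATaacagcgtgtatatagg
Hist1h3g: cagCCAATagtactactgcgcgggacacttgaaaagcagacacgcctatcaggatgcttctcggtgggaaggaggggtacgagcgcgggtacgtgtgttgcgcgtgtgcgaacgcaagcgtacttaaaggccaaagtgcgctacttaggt
Hist1h4d: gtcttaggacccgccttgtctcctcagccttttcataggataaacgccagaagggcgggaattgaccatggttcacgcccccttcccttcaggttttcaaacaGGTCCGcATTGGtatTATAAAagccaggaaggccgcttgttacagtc

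Motifs were counted on both strands from 250 bases before to 50 after the start, and none of these motifs contains another. CCAAT, the box bound by NF-Y, was in all 15 H2A, all 15 H2B and all 9 H3 promoters read but in 3 of 11 H4 promoters, against 41.1% of 27025 promoters. The octamer ATTTGCAT, bound by OCT1, was in 7 of 15 H2A and 7 of 15 H2B promoters and in no H3 or H4 promoter, against 1.97%. GGTCCG, the core of the H4 element bound by HINFP and a motif chosen after the sequences were read, was in 10 of 11 H4 promoters, 1 H2B promoter and 1 H3 promoter, against 9.44%. TATAAA was in 30 of the 50, against 15.7%. A match describes these letters and is not evidence that a site is bound.

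Levels differed widely among copies. In total RNA the 3 most abundant genes held 62.3% of the mean H2A FPKM, 56.6% of H2B, 81.7% of H3 and 74.6% of H4. Hist1h4j was the most abundant H4 gene at 7692 FPKM over all 8 libraries, Hist1h3f led H3 at 4104 FPKM, Hist2h2bb led H2B at 3362 FPKM and Hist1h2ai led H2A at 2798 FPKM. At the low end stood Hist1h2aa with 16.4 FPKM and Hist1h2ba with 7.38 FPKM, both known as testis histones.

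The first comparison asked how histone mRNA differed between valine-free and control diets. Core histone mRNA was lower at 0 g/kg than at 8 g/kg in all 4 families. Summed over the 56 genes, total RNA held 40554 FPKM in T-ALL 2 and 38718 FPKM in T-ALL 3 at 0 g/kg, against 51623 and 61373 FPKM at 8 g/kg. The 0 g/kg libraries were both below the 8 g/kg libraries, at 0.786 times the 8 g/kg sum in T-ALL 2 and 0.631 times in T-ALL 3. The share of reads gave the same order, 210 of every 10000 in T-ALL 2 (95% Wilson interval 206.7 to 213.4) at 0 g/kg, against 261.4 (258.6 to 264.2) at 8 g/kg. In T-ALL 3 it was 208.1 (203.8 to 212.4) at 0 g/kg, against 313.7 (310 to 317.4) at 8 g/kg, and these intervals cover counting error only. In a sum over sorted cells, fewer cycling cells and less histone mRNA per cell cannot be told apart.

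The differences were of similar size in the 4 families. H3 summed to 8949 and 8383 FPKM at 0 g/kg (T-ALL 2 and T-ALL 3), against 12578 and 14183 FPKM at 8 g/kg. H2A summed to 9126 and 8677 FPKM at 0 g/kg, against 11713 and 13854 FPKM at 8 g/kg. For H2B the sums were 8907 and 7644 FPKM at 0 g/kg, against 10892 and 12162 FPKM at 8 g/kg. H4, the family with most mRNA, summed to 13571 and 14014 FPKM at 0 g/kg, against 16441 and 21173 FPKM at 8 g/kg. No family's 0 g/kg libraries overlapped its 8 g/kg libraries, and with 2 libraries a side an exact two-sided permutation test cannot go below 0.333, so the sums carry no test. The families kept nearly constant proportions in total RNA over all 8 libraries: H4 made up 31.8% to 36.2% of core histone FPKM, H3 21.7% to 24.4%, H2A 21.4% to 22.7% and H2B 19.7% to 22%.

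**Figure D1:**
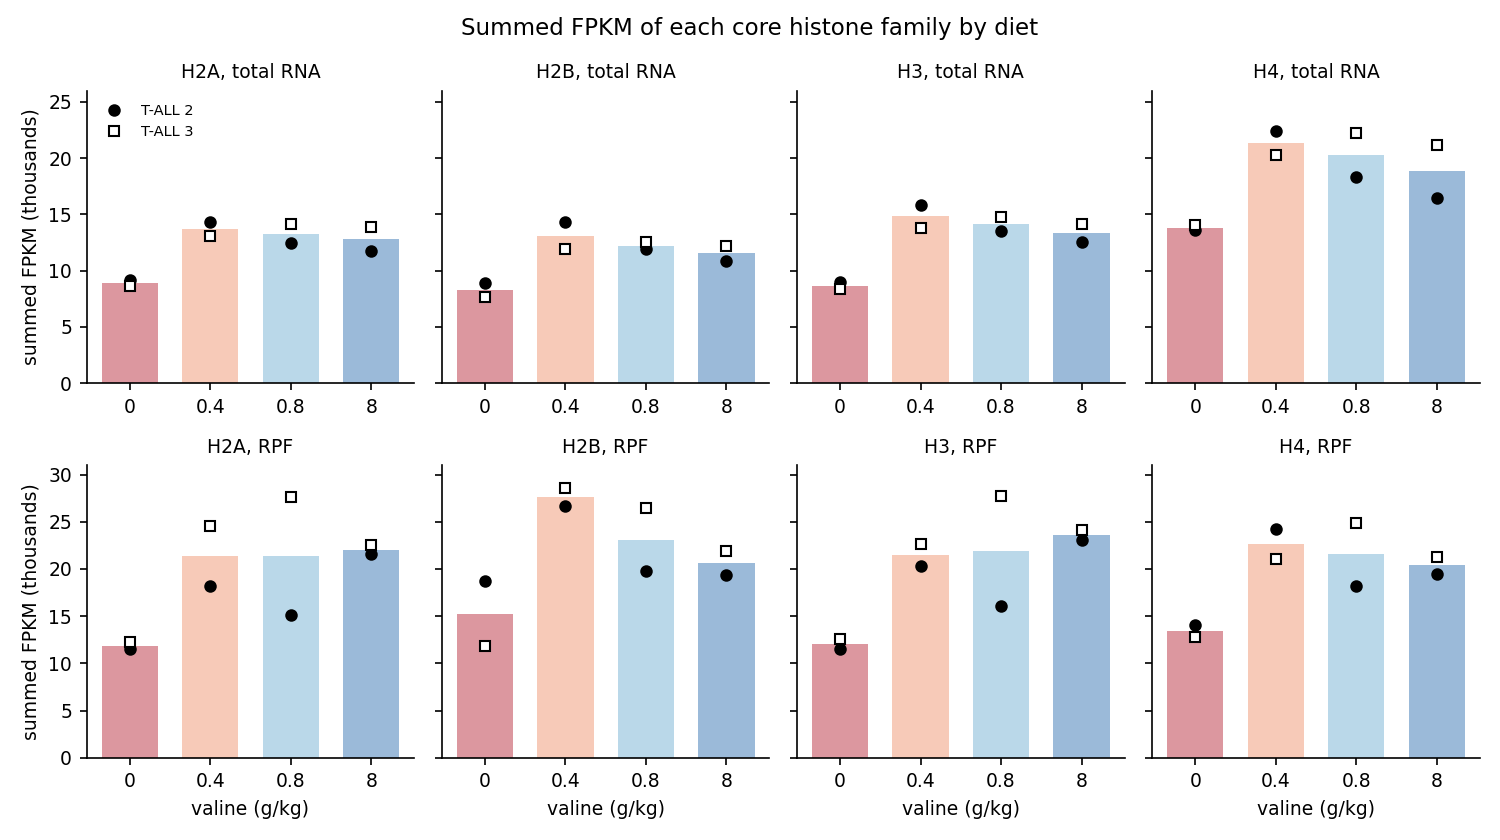
Summed FPKM (axis in units of 1000 FPKM) of the H2A, H2B, H3 and H4 genes by valine in the diet (g/kg), in total RNA (top) and ribosome-protected fragments (bottom); bars are means of 2 libraries, filled circles T-ALL 2 and open squares T-ALL 3. In total RNA both 0 g/kg libraries lie below all 6 others in each family, while in ribosome-protected fragments the H2B value of T-ALL 2 at 0 g/kg, 18718 FPKM, lies close to its 8 g/kg value, 19408 FPKM.

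Gene by gene, limma on log2(FPKM + 0.5) gave a median log2 change at 0 against 8 g/kg of -0.51 over the 56 members, against -0.04 over the 10054 genes tested. Of the members 54 were below 0, as were 54% of all genes. None passed a Benjamini-Hochberg adjusted p of 0.05, and neither did any of the 10054 genes. The lowest adjusted p of a member was 0.174. At an unadjusted p under 0.05, 38 members were lower and 0 higher, where 4.02% of all genes tested were lower and 2.57% higher. Both 0 g/kg libraries lay below both 8 g/kg libraries for 45 members, where 20.3% of all genes did so. Without the 8 g/kg library of T-ALL 3 the 38 members at an unadjusted p under 0.05 were 18. With voom on the recovered reads they were 25, and 3 of all genes then had an adjusted p under 0.05.

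Among H2A genes, 15 of 16 were below 0 in total RNA and 8 had an unadjusted p under 0.05, with a median log2 change of -0.51. Hist2h2aa1 (chr3:96245497-96246052), an H2A gene with a near-identical neighbouring copy, had 332 and 296 FPKM at 0 g/kg, 662 and 615 at 0.4 g/kg, 600 and 669 at 0.8 g/kg, and 555 and 590 at 8 g/kg (T-ALL 2 and T-ALL 3). Both 0 g/kg libraries were below every other library, and the log2 change against 8 g/kg was -0.87 ± 0.12 (SE, limma, adjusted p = 0.174). Hist2h2ac, with 1722 and 1539 FPKM at 0 g/kg against 2350 and 2984 FPKM at 8 g/kg, had a log2 change of -0.70 ± 0.13. Hist1h2ai and Hist1h2al, the other abundant H2A genes, gave -0.53 ± 0.14 and -0.64 ± 0.13, again with both 0 g/kg libraries lowest. Hist1h2ac showed no such gap: it averaged 99.3 ± 2.8 FPKM at 0 g/kg and 108 ± 17.1 FPKM at 8 g/kg (SD, n = 2 each).

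All 17 H2B genes were below 0 in total RNA, 11 of them at an unadjusted p under 0.05, with a median of -0.44. Hist1h2bm (chr13:21722044-21722526) had 430 and 500 FPKM at 0 g/kg, 1021 and 769 at 0.4 g/kg, 674 and 742 at 0.8 g/kg, and 723 and 867 at 8 g/kg. The 0 g/kg libraries did not overlap any other diet, and the log2 change against 8 g/kg was -0.77 ± 0.17 (SE, limma, adjusted p = 0.312). Hist1h2bc, which spans 8282 bases in the annotation, had a log2 change of -0.44 ± 0.10 with 1261 and 1173 FPKM at 0 g/kg against 1591 and 1718 FPKM at 8 g/kg. The most abundant H2B gene, Hist2h2bb, gave -0.40 ± 0.13. Hist1h2bl was uneven between libraries: 1147 FPKM in T-ALL 2 and 588 in T-ALL 3 at 0 g/kg, against 1543 and 1809 FPKM at 8 g/kg.

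All 11 H3 genes were below 0, 10 at an unadjusted p under 0.05, with a median of -0.55 and changes from -1.27 to -0.03. Hist1h3g (chr13:23535418-23535909), one of the 4 genes for H3.1, had 561 and 581 FPKM at 0 g/kg, 1177 and 813 at 0.4 g/kg, 1026 and 1054 at 0.8 g/kg, and 1082 and 1134 at 8 g/kg. Its 0 g/kg libraries were the lowest of the 8, and the log2 change against 8 g/kg was -0.96 ± 0.16 (SE, limma, adjusted p = 0.207). Hist1h3f (chr13:23544052-23544954), the most abundant H3 gene, had 3016 and 2433 FPKM at 0 g/kg against 4049 and 4593 FPKM at 8 g/kg, a change of -0.67 ± 0.13. Hist2h3b and Hist1h3c, the next in level, gave -0.60 ± 0.13 and -0.55 ± 0.12. H3.1 and H3.2, which differ at a single residue, were both lower: H3.1 genes held 10.8% and 11.1% of H3 FPKM at 0 g/kg and 13% and 12.3% at 8 g/kg. Shares as low occurred at the middle doses, 11.8% and 10.6% at 0.4 g/kg and 12.3% and 11.1% at 0.8 g/kg, and in RPF the groups overlapped, with 18% and 13.2% at 0 g/kg against 14.2% and 16% at 8 g/kg.

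Of the 12 H4 genes, whose products are the most conserved of the core histones, 11 were below 0 and 9 had an unadjusted p under 0.05, with a median of -0.48. Hist1h4j (chr13:21735034-21735456) had 5598 and 5871 FPKM at 0 g/kg, 9487 and 8448 at 0.4 g/kg, 7293 and 9241 at 0.8 g/kg, and 6855 and 8745 at 8 g/kg. Its 0 g/kg values were below all others, and the log2 change was -0.43 ± 0.15 (SE, limma, adjusted p = 0.647). Hist1h4d, second in level, had 2519 and 2913 FPKM at 0 g/kg against 3212 and 4268 FPKM at 8 g/kg and a change of -0.45 ± 0.17. Hist1h4m was tighter, with 1702 and 1679 FPKM at 0 g/kg against 2224 and 2748 FPKM at 8 g/kg and a change of -0.55 ± 0.12. Hist4h4, the lone gene outside the clusters, had 94.9 and 68.2 FPKM at 0 g/kg against 138 and 166 FPKM at 8 g/kg, a change of -0.91 ± 0.20.

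**Figure D2:**
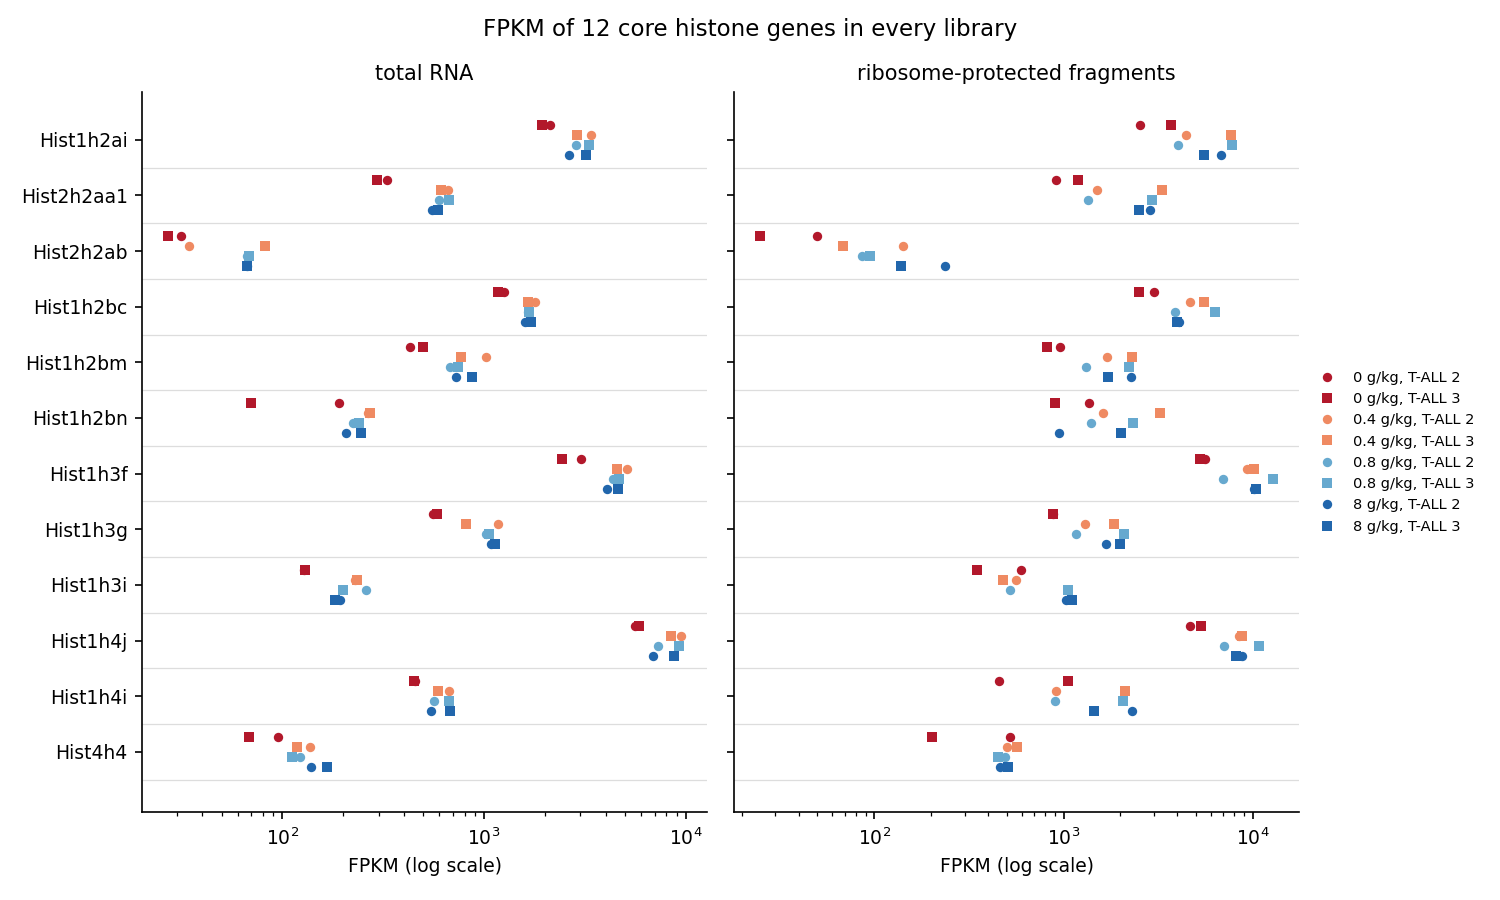
FPKM (log scale) of 12 core histone genes named in the text in every library, by diet (colour) and T-ALL number (circles T-ALL 2, squares T-ALL 3), in total RNA (left) and ribosome-protected fragments (right). In total RNA the 0 g/kg points of each of the 12 genes lie left of the 8 g/kg points; in ribosome-protected fragments those of Hist1h2bn and Hist4h4 overlap them.

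Changes of the members in head-to-head pairs lay apart in some pairs and close together in others. Hist1h2ak and Hist1h2bn, whose starts lie 164 bases apart, gave log2 changes in total RNA of -0.23 ± 0.15 and -0.96 ± 0.37 at 0 against 8 g/kg. Hist1h2ae and Hist1h2bg, 180 bases apart, gave -0.26 ± 0.19 and -0.38 ± 0.16. Hist1h2bl and Hist1h2ai, 229 bases apart, gave -1.02 ± 0.28 and -0.53 ± 0.14. Hist1h2an and Hist1h2bp gave -0.53 ± 0.25 and -0.10 ± 0.32, and Hist1h2bq and Hist1h2ao -0.62 ± 0.20 and -0.15 ± 0.14. Closer values came from Hist1h2bf and Hist1h2ad, -0.78 ± 0.19 and -0.63 ± 0.20, and from Hist1h2ah and Hist1h2bk, -0.34 ± 0.15 and -0.50 ± 0.19. The low Hist1h2ba and Hist1h2aa gave -2.60 ± 1.41 and -2.75 ± 1.23. The differences within pairs were not tested.

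The middle doses were set against the control diet next. Histone mRNA at 0.4 and 0.8 g/kg lay near the 8 g/kg level. In total RNA the core histone sums were 66771 and 59080 FPKM at 0.4 g/kg, with 56138 and 63645 FPKM at 0.8 g/kg. The log2 medians of the members against 8 g/kg were 0.16 for 0.4 g/kg and 0.08 for 0.8 g/kg, with 10 and 17 of 56 members below 0, where 50.8% and 53.6% of all genes were. Libraries did not overlap and were higher for 23 members at 0.4 g/kg (18.4% of all genes) and 11 at 0.8 g/kg (13.8%). At 0.4 g/kg 4 members were higher at an unadjusted p under 0.05 (1.59% of all genes tested) and at 0.8 g/kg 1, Hist1h2ba, was lower (2.14%), and limma gave no adjusted p under 0.05 at either dose. By T-ALL number the 0.4 g/kg median was 0.38 in T-ALL 2 and -0.04 in T-ALL 3. It was 0.04 without the 8 g/kg library of T-ALL 2, 0.26 without that of T-ALL 3, and 0.08 and 0.28 without the 0.4 g/kg libraries of T-ALL 2 and T-ALL 3. The 3 doses share the 8 g/kg libraries, and the 0.8 g/kg median turned to -0.03 without the 8 g/kg library of T-ALL 2.

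Set against the 4 libraries of 0.4 and 0.8 g/kg, which leaves the 8 g/kg libraries out of the difference, total RNA at 0 g/kg was below 0 in 56 of 56 members, where 51.3% of all genes were, with a median log2 difference of -0.60. At an unadjusted p under 0.05, 47 were lower, where 4.18% of all genes were, and 46 had both 0 g/kg libraries below all 4 others, where 7.7% of all genes did. All 11 H3 genes were among the 47, with 12 H2A, 14 H2B and 10 H4 genes. By limma with Benjamini-Hochberg adjustment none reached 0.05, and Hist2h2aa1 came nearest at -1.02 ± 0.10 (adjusted p = 0.0574). Its adjusted p (limma) was 0.0384 with median-ratio scaling, which called 1 of all genes. With voom on recovered reads, which called 8 of all genes, it was 0.0327. Hist1h3f (0.0303) and Hist2h3b (0.0423) also passed with voom. As a slope over the 4 doses, the member median was -0.15 in log2 per step of less valine, with 21 members lower at an unadjusted p under 0.05 (3.71% of all genes). That slope was -0.07 with voom on recovered reads and -0.08 without the 0 g/kg library of T-ALL 3.

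**Figure D3:**
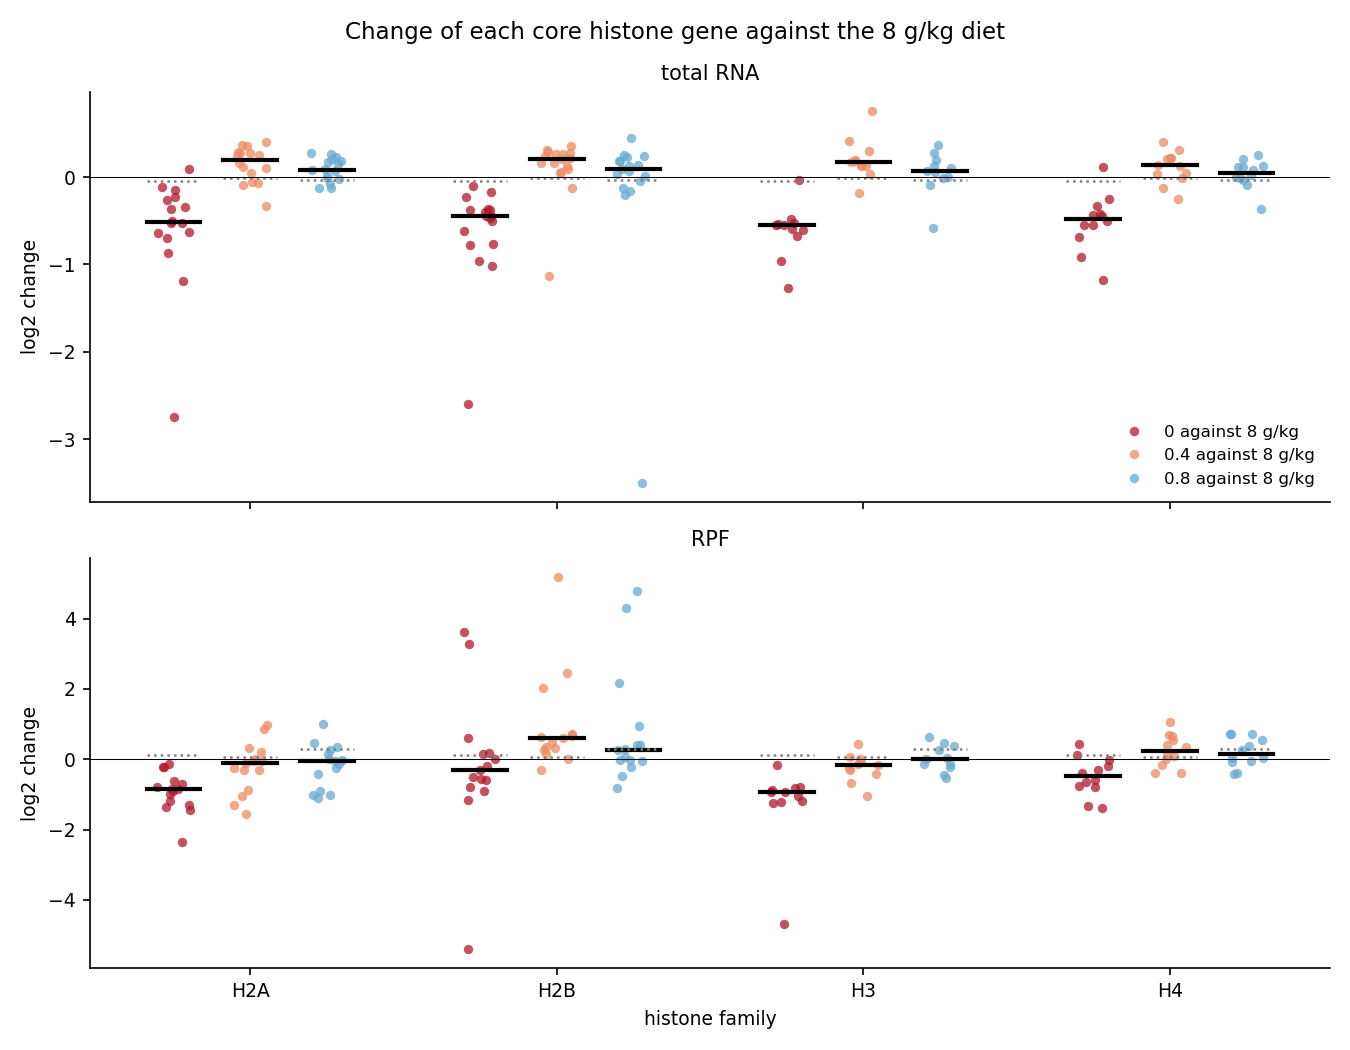
Log2 change of each core histone gene at 0, 0.4 and 0.8 g/kg valine against 8 g/kg, by family, in total RNA (top) and ribosome-protected fragments (bottom; the axes differ). Each point is a gene, black bars are family medians and dotted lines the median of all genes tested. The 0 g/kg medians run from -0.55 to -0.44 in total RNA and from -0.94 to -0.31 in ribosome-protected fragments. Those at 0.4 and 0.8 g/kg run from -0.15 to 0.27, except H2B in ribosome-protected fragments at 0.4 g/kg, 0.62.

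Ribosome-protected fragments gave the ribosome coverage of the same genes. RPF on core histones was also lower at 0 g/kg, with sums of 55780 and 49455 FPKM (T-ALL 2 and T-ALL 3), against 83480 and 89816 FPKM at 8 g/kg. That is 0.668 times the 8 g/kg sum in T-ALL 2 and 0.551 times in T-ALL 3. Members with a mean of at least 1 FPKM numbered 53, since Hist1h2aa, Hist1h2ba and Hist1h2bq had 0 RPF reads in each of the 8 libraries. A count of 0 allows up to 0.146 to 0.717 reads per 10000 in these libraries. Hist1h2bq had 34 to 158 reads in each total RNA library.

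Over the 53 members the median log2 change in RPF at 0 against 8 g/kg was -0.78, while the median over all 9718 genes tested was 0.12. Of the members 45 were below 0, where 43.2% of all genes were. At an unadjusted p under 0.05, 18 were lower and 0 higher, where 2.22% of all genes were lower and 4.95% higher. For 31 members both 0 g/kg libraries lay below both 8 g/kg libraries, where 11.7% of all genes did so. Limma gave no adjusted p under 0.05 to any of the 9718 genes, and the lowest of a member was 0.469. The count of 18 was 5 without the 8 g/kg library of T-ALL 3, 7 without that of T-ALL 2, and 9 and 7 without the 0 g/kg libraries of T-ALL 2 and T-ALL 3. Over all genes the calls at an unadjusted p under 0.05, both directions together, were 1210, 842, 790 and 789 in these 4 fits, against 697 with every library. The member count was 7 when reads were thinned to the shallowest library. Taken by T-ALL number, with 1 library a side, the member median was -0.42 in T-ALL 2 and -0.99 in T-ALL 3.

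All 15 H2A and all 11 H3 genes tested were below 0 in RPF, with medians of -0.85 and -0.94, whereas H4 had 10 of 12 below 0 with a median of -0.48 and H2B 9 of 15 with a median of -0.31. Hist1h3f had 5603 and 5243 FPKM in RPF at 0 g/kg, 9306 and 10180 at 0.4 g/kg, 6955 and 12853 at 0.8 g/kg, and 10193 and 10450 at 8 g/kg. The 0 g/kg libraries were the lowest of the 8, the log2 change against 8 g/kg was -0.93 ± 0.36 (SE, limma, adjusted p = 0.654), and with voom on recovered reads, which called 6 of all genes, the adjusted p was 0.0203. Hist1h4j had 4633 and 5344 FPKM at 0 g/kg against 8798 and 8196 FPKM at 8 g/kg, a change of -0.77 ± 0.32. Hist1h2bm had 962 and 813 FPKM at 0 g/kg against 2269 and 1717 FPKM at 8 g/kg, a change of -1.16 ± 0.36. Hist1h3i and Hist1h4h gave -1.23 ± 0.42 and -1.32 ± 0.43, each with its 0 g/kg libraries below its 8 g/kg libraries.

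Several of the largest RPF changes rested on few reads. Hist2h2ab (-2.35 ± 0.52) was covered by 2 and 1 reads at 0 g/kg, against 5 and 5 at 8 g/kg. Hist1h2bp (-5.40 ± 1.42) had 1 and 0 reads at 0 g/kg, against 4 and 6 at 8 g/kg. Among the 41 members with at least 100 RPF reads over the 8 libraries, 38 were below 0, the median was -0.78 and the changes ran from -1.44 to 0.62. The 0.62 belonged to Hist3h2ba, the 1 member whose 0 g/kg libraries both lay above its 8 g/kg libraries (16.7% of all genes did so), with 10 and 12 reads at 0 g/kg against 3 and 8 reads at 8 g/kg. The H2B sum at 0 g/kg was 0.964 times that at 8 g/kg between the T-ALL 2 RPF libraries and 0.541 times between those of T-ALL 3.

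Against the 0.4 and 0.8 g/kg libraries, RPF at 0 g/kg was below 0 in 52 of 53 members, where 50.8% of all genes were, with a median of -0.82. At an unadjusted p under 0.05, 23 were lower, where 2.79% of all genes were, and 28 lay below all 4 libraries, where 6.99% of all genes did. Limma gave 0 adjusted p under 0.05, and the 23 became 5 without the 0 g/kg library of T-ALL 3 and 9 to 15 without any other single library except the 0.8 g/kg library of T-ALL 2. Per step of less valine the median was -0.24, with 15 members lower (2.31% of all genes). RPF at 0.4 and 0.8 g/kg had member medians of 0.06 and 0.04 against 8 g/kg, where all genes had 0.08 and 0.30. At 0.8 g/kg the members thus lay -0.26 relative to all genes, with 35 of 53 below the all-gene median, a gap that was 0.02 with voom on recovered reads. At an unadjusted p under 0.05, 3 members were lower and 2 higher at 0.4 g/kg (2.49% and 4.18% of all genes), while 2 were lower and 1 higher at 0.8 g/kg (0.854% and 4.72%). By family the 0.4 g/kg medians were 0.62 in H2B, 0.25 in H4, -0.10 in H2A and -0.15 in H3. In H2B 14 of 15 genes and in H4 9 of 12 were above 0. Below 0 were 10 of 15 H2A and 8 of 11 H3 genes. Of all 9718 genes, 5146 were above 0 and 4332 below. The spread at 0.8 g/kg was wide: the core sum was 69161 FPKM in T-ALL 2 and 106654 FPKM in T-ALL 3.

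The study's own measure is ribosome occupancy relative to mRNA, here the log2 RPF value minus the log2 total RNA value of the same diet and T-ALL number. At 0 against 8 g/kg this difference had a member median of -0.22, where the 9361 genes tested had 0.20. Hist1h2bp (H2B) was lower (1.74% of all genes) and Hist1h4b (H4) higher (4.84%) at an unadjusted p under 0.05, both with few RPF reads, and limma gave 0 adjusted p under 0.05. At 0.4 and 0.8 g/kg the member medians were -0.06 and -0.04, where all genes had 0.14 and 0.36. Relative to all genes, members lay at -0.42 on the valine-free diet, at -0.20 with 0.4 g/kg and at -0.41 with 0.8 g/kg, so the gap was as large at 0.8 g/kg as without valine. The gap at 0 g/kg was -0.42 with median-ratio scaling too. With recovered reads in place of FPKM, as log2 reads scaled to each library's total, the all-gene median at 0 g/kg was -0.08. The 0 g/kg member median was then -0.29, that is -0.21 relative to all genes. The gaps at 0.4 and 0.8 g/kg were then -0.01 and -0.06.

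Averaged over the 4 diets, core histone genes had a higher RPF FPKM relative to their total RNA FPKM than most genes. The gene lengths behind the FPKM are not stated in the sources. Whole reads were recovered with a step per gene that the RPF and total RNA libraries shared, apart from a factor for each library. The part of gene length in this difference was not tested. Their median RPF minus total RNA difference was 0.31 in log2, against -0.59 over all 9361 genes, and 47 of 53 members lay above that all-gene median. By limma with Benjamini-Hochberg adjustment, 17 members were higher in RPF than in total RNA, where 3.41% of all genes were, and 2 were lower, where 6.3% were. In 19 members RPF was above total RNA in 8 of 8 library pairs, where 4.07% of all genes were, and in 5 it was below in 8 of 8, where 12.4% were. Leaving out 1 library gave 0 to 8 higher calls in place of 17: 0 without T-ALL 2 or T-ALL 3 at 0.4 or 8 g/kg, 4 without either at 0 g/kg, and 8 and 6 without T-ALL 2 and T-ALL 3 at 0.8 g/kg. Calls over all genes went the same way, with 1 to 46 in these fits in place of 909. With recovered reads scaled to each library's total in place of FPKM, the member median was 0.63 and the all-gene median 0.14. Members then lay 0.48 above all genes instead of 0.90. That gap was also 0.90 with median-ratio scaling, and 1.15 and 0.68 with pseudocounts of 0.1 and 2.

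The 17 comprised 6 H2A, 5 H2B, 4 H3 and 2 H4 genes. Hist1h2bn (chr13:21754076-21754553) stood highest at 2.98 ± 0.22 (SE, limma, adjusted p = 0.00753), with 900 to 3220 FPKM in RPF and 69.6 to 273 FPKM in total RNA. Hist1h2bg gave 2.02 ± 0.17, Hist4h4 1.94 ± 0.16, Hist2h2aa1 1.85 ± 0.21, Hist1h3i 1.80 ± 0.21 and Hist3h2a 1.63 ± 0.14. In each of these 6 genes RPF was the higher in 8 of 8 pairs. Hist1h3f, at 1.08 ± 0.16, and Hist1h4i, at 1.12 ± 0.26, were among the 17, while Hist1h4j at -0.01 ± 0.18 and Hist2h2ac at 0.18 ± 0.19 were not. The 2 lower calls, named after their values were seen, were Hist2h3c2 at -2.31 and Hist1h2bk at -4.32, with 1 to 8 and 0 to 2 RPF reads per library.

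**Figure D4:**
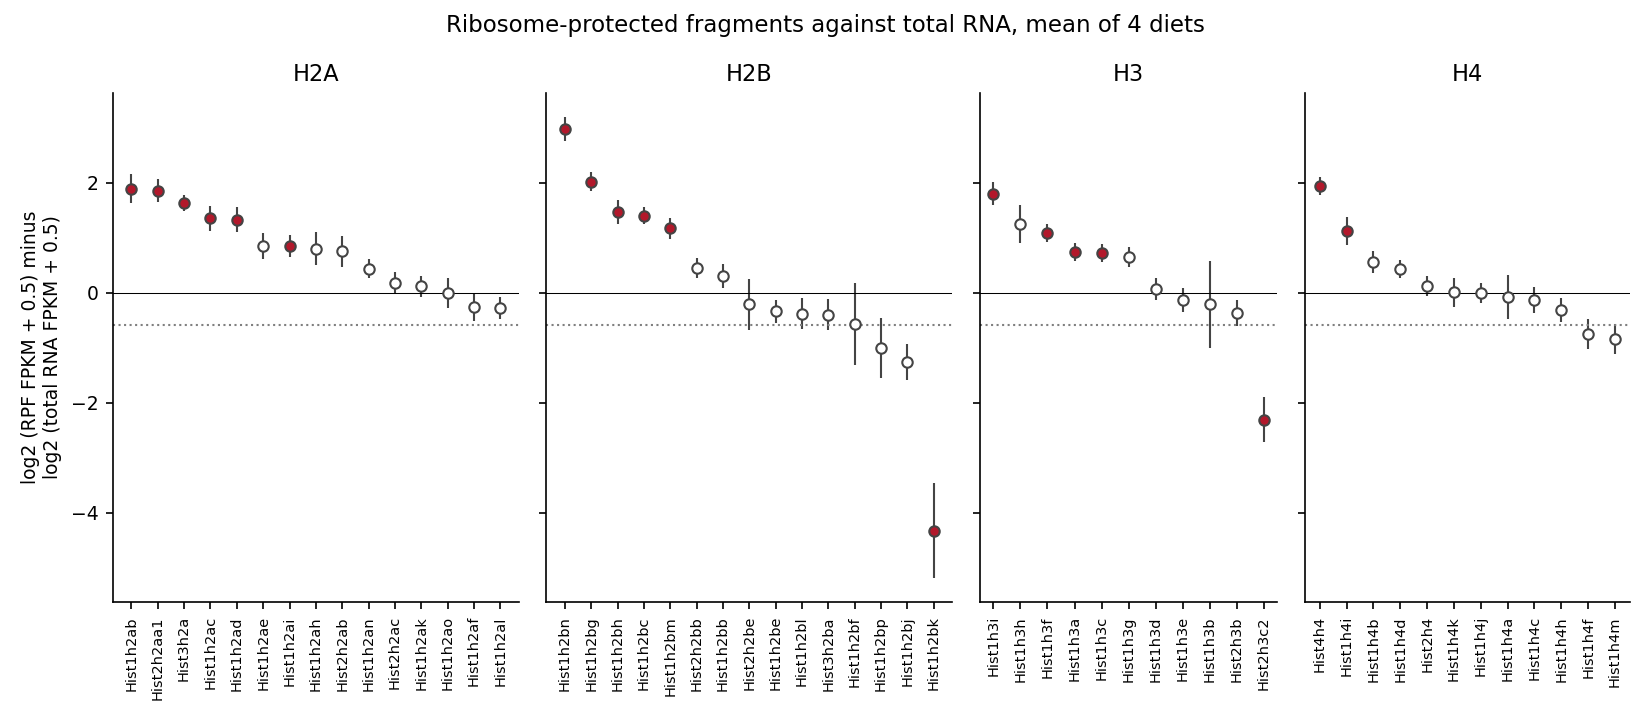
Log2 RPF minus log2 total RNA of each core histone gene with a mean of at least 1 FPKM in both fractions, mean of 4 diets, sorted within each family; bars are standard errors, filled points have an adjusted p under 0.05 (limma), and the dotted line is the median of all 9361 genes, -0.59. Of the 53 genes, 47 lie above the dotted line.

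By family, the ratio of summed RPF FPKM to summed total RNA FPKM had a median over the 8 pairs of 1.83 in H2B (1.55 to 2.4), 1.57 in H3 (1.19 to 1.87), 1.52 in H2A (1.22 to 1.96) and 1.035 in H4 (0.916 to 1.19). The H4 range did not overlap those of H2A and H2B and met that of H3 at 1.19. H4 held a median of 24.4% of core histone FPKM in RPF, against 33.95% in total RNA. The ranges of H2A, H2B and H3 overlapped one another.

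By cluster, total RNA at 0 against 8 g/kg had a median log2 change of -0.50 over the 45 Hist1 genes and -0.58 over the 8 Hist2 genes, all 8 of which were below 0. The Hist3 genes Hist3h2a and Hist3h2ba gave -0.50 and -0.44. In RPF, Hist1 had a median of -0.77 and Hist2 -0.83, with 8 of 8 Hist2 genes below 0. Hist3h2a in RPF had 817 and 521 FPKM at 0 g/kg against 806 and 707 FPKM at 8 g/kg, which overlapped.

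Genes that make, bind or place histones were read from lists drawn up for this description. None of the lists below had a gene with an adjusted p under 0.05 in total RNA at 0 against 8 g/kg (limma). Of 28 tested genes for histone mRNA transcription and processing, 0 were lower and 1 higher at an unadjusted p under 0.05 (2.57% of all genes were higher), and their sum was 1051 and 979.1 FPKM at 0 g/kg against 1016 and 992.4 FPKM at 8 g/kg. Slbp, the stem-loop binding protein, had 58.7 and 64.3 FPKM at 0 g/kg against 37.4 and 42.6 FPKM at 8 g/kg, a log2 change of 0.62 ± 0.21. Npat, a cofactor of histone gene transcription, gave 0.43 ± 0.28. Of 27 genes for histone chaperones and chromatin assembly, 0 passed an unadjusted p of 0.05, where 4.02% of all genes were lower and 2.57% higher. Nasp, a chaperone of H3 and H4, gave 0.34 ± 0.18, Asf1b 0.09 ± 0.24, Chaf1a 0.61 ± 0.28 and the H4 acetyltransferase Hat1 0.07 ± 0.24.

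Of 44 genes for DNA replication and S phase, 10 were below 0, where 54% of all genes were. At an unadjusted p under 0.05, 6 were higher (2.57% of all genes) and 1 lower (4.02%), and they summed to 3316 and 2978 FPKM at 0 g/kg against 2708 and 2849 FPKM at 8 g/kg. Pcna, the replication clamp, had 485 and 427 FPKM at 0 g/kg and 378 and 435 FPKM at 8 g/kg, which overlapped. The median log2 change of the list was 0.17. Of 8 replication-independent histone variants, 5 were below 0, near the 54% of all genes. At an unadjusted p under 0.05, 1 was lower (4.02% of all genes). This was H2afx, named after its values were seen, whose mRNA is known in a stem-loop form too. H2afx had 204 and 214 FPKM at 0 g/kg against 341 and 358 FPKM at 8 g/kg, a change of -0.74 ± 0.12 (SE, limma, adjusted p = 0.174). H2afz and H3f3b, whose mRNAs are polyadenylated, gave -0.18 ± 0.12 and 0.01 ± 0.13.

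Markers of other cells moved with the 0 g/kg diet as well. All 11 measured neutrophil genes, S100a8 and S100a9 among them, were above 0 in total RNA at 0 against 8 g/kg, where 4622 of 10054 genes were. They summed to 630 and 299.9 FPKM at 0 g/kg against 27.03 and 29.3 FPKM at 8 g/kg. At the middle doses the neutrophil sums were 44.44 and 95.14 FPKM (0.4 g/kg) and 48.45 and 10.72 FPKM (0.8 g/kg). At 8 g/kg Mpo and Retnlg were listed at 0 in both libraries. All 8 tested erythroid genes were below 0, where 54% of all genes were. The erythroid list stood at 26.18 and 51.19 FPKM at 0 g/kg against 285.6 and 702.6 FPKM at 8 g/kg. It was below the control diet at the middle doses too, with 184.6 and 132.3 FPKM at 0.4 g/kg and 135.7 and 101.3 FPKM at 0.8 g/kg. There 7 and 8 of the 8 genes were below 0, where 50.8% and 53.6% of all genes were. The 14 T-cell markers summed to 2689 and 2407 FPKM at 0 g/kg against 2501 and 3204 FPKM at 8 g/kg, which overlapped. B-cell markers summed to 49.85 and 85.08 FPKM at 0 g/kg against 16.92 and 30.47 FPKM at 8 g/kg, and macrophage markers to 11.19 and 4.256 FPKM at 0 g/kg against 10.13 and 8.909 FPKM at 8 g/kg. The part of these other cells in the histone difference was not tested.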

How the data were processed

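The deposited table gives FPKM per gene and library, made by the authors. The submitters' processing notes name STAR 2.5.0c, Bowtie2 2.3.4, edgeR 3.14.0 and cutadapt 1.18 and the builds mm10 and GRCm38. What each did, how reads with several matches were treated and the FPKM formula are not stated there. The members and lists were chosen with earlier results of these data known.

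FPKM values were read as whole multiples of the value of 1 read. The search kept a step only where every value of a gene lay within 0.02 of a whole number. All 149988 values above 0 therefore did so (100%), and the largest distance was 1.13e-05. On simulated counts 97.9% of 11950 genes were recovered. Reads ranged from 41848 to 1269364 per library, and intervals and floors (3 reads) cover counting error only, since no molecular identifiers are recorded.

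Genes with a mean of at least 1 FPKM in a fraction were tested on log2(FPKM + 0.5) with limma (version 3.58.1, under R version 4.3.3), which fitted the 4 diets over the 8 libraries of the fraction with a trended prior and two-sided p-values, Benjamini-Hochberg adjusted over all genes tested. Fold changes are therefore on the log2(FPKM + 0.5) scale, which understates low genes. Ribosome occupancy relative to mRNA was fitted to the 8 RPF minus total RNA differences. The fit was also run on simulated data with 200 changed genes. The spread between simulated libraries was fixed and not taken from these data, so that run does not measure power here. Named genes were, in each family, the 3 most abundant in total RNA and the 2 with the smallest p in total RNA, in RPF and in RPF against total RNA. Slbp, Npat, Hat1, Asf1b, Chaf1a, Nasp, Pcna, H2afz and H3f3b were set to be named whatever their values. Other genes outside the rule were chosen after their values were seen. Voom on the recovered reads called 3 genes in total RNA and 6 in RPF at 0 against 8 g/kg at an adjusted p under 0.05. Alternatives were pseudocounts of 0.1 and 2, no filter or a minimum of 5 FPKM, median-ratio scaling, voom on recovered reads, thinning, only the diets compared, the T-ALL number as a block, and each library left out. For RPF minus total RNA, the recovered reads were taken as log2 reads scaled to library totals and fitted without voom weights. A count of members with at least 100 reads was added after seeing the data.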

Additional observations from a re-analysis of the deposited data

How the results depend on the processing

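The 0 g/kg medians kept their sign under every alternative run, in total RNA and in RPF. Without 1 library in turn they ranged from -0.62 to -0.39 (total RNA) and -0.95 to -0.57 (RPF) against 8 g/kg, and from -0.67 to -0.55 and -1.03 to -0.65 against the middle doses. Medians near 0 did not hold a sign. RPF at 0.4 against 8 g/kg was -0.06 with voom and -0.09 to 0.20 without 1 library; at 0.8 g/kg it was -0.09 with median-ratio scaling, -0.16 with voom, -0.01 over members with at least 100 reads and -0.25 to 0.36 without 1 library. Total RNA was 0.04 to 0.28 at 0.4 g/kg and -0.03 to 0.17 at 0.8 g/kg without 1 library, and its slope per step -0.21 to -0.08. RPF minus total RNA at 0.4 g/kg was -0.16 with recovered reads in place of FPKM and -0.16 over members with at least 100 reads. Without 1 library it was -0.19 to 0.19 at 0.4 g/kg and -0.32 to 0.27 at 0.8 g/kg. Averaged over diets it was 0.63 with recovered reads and 0.45 over members with at least 100 reads.

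Counts moved more. Members lower at 0 against 8 g/kg (unadjusted p under 0.05) were 25 in total RNA with voom and 18 to 38 without 1 library, and in RPF 7 thinned, 10 with only the diets compared and 5 to 17 without 1 library. Against the middle doses RPF gave 12 with median-ratio scaling, 11 thinned, 10 with only the diets compared and 5 to 22 without 1 library. RPF against total RNA had 0 to 8 higher calls without 1 library; its lower calls were 0 with pseudocount 0.1, 1 thinned, 1 with the replicate block, 0 over members with at least 100 reads and 0 without any 1 library. All-gene calls at an unadjusted p under 0.05, both directions together, moved as well. In total RNA at 0 against 8 g/kg they were 690 with voom, against 662 in the main fit. In RPF they were 555 thinned and 719 with only the diets compared, against 697. For RPF against the middle doses they were 413 with median-ratio scaling, 578 thinned and 602 with only the diets compared, against 437. Fewer samples or reads enter the left-out and thinned fits. The cause of the other shifts was not tested.

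With the T-ALL number as a replicate block, members lower at 0 against 8 g/kg were 39 in total RNA and 22 in RPF, and higher RPF calls were 12. Over all genes, calls at an unadjusted p under 0.05 in either direction were 686 in total RNA and 668 in RPF. Without the block they were 662 and 697. Adjusted calls for RPF against total RNA over all genes were 239 with the block and 909 without it. Same-numbered libraries' deviations correlated between diets at -0.04 to 0.25 in total RNA and -0.02 to 0.07 in RPF. The main fits therefore did not pair libraries of different diets by number. The number did pair each RPF library with the total RNA library of its diet, and it set the ratios and medians given by T-ALL number. RPF depth limits single genes: 41 members had at least 100 RPF reads over 8 libraries, against 54 in total RNA.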
